A study of Mus musculus with 12 samples.

Results

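Fibronectin, tenascin C and the matricellular proteins are secreted into the matrix around cells, where they change how cells attach, spread and respond to growth factors. A set of 9 genes of this kind was followed in mouse lens cells (LCs) after removal of the lens fiber cells, a model of cataract surgery. They are Fn1, Tnc, Thbs1, Thbs2, Sparc, Spp1, Ecm1, Tgfbi and Postn, and all 9 symbols were found among the 45859 genes of the RNA-Seq tables. The set was chosen with earlier results of these data known. Fibronectin, made by Fn1, assembles into fibrils that bind integrins and tether latent TGF-β. The matricellular proteins are mostly scarce in resting adult tissue and are made during wound repair and fibrosis, and in the lens their appearance around LCs accompanies fibrotic posterior capsular opacification.

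The RNA came from LCs left on the lens capsule at 0 h and 24 h post cataract surgery (PCS), in 12 libraries, 3 for each of 4 conditions. WT mice were C57BL/6, and β8ITG-cKO mice, of a mixed C57BL/6 and 129S1/Sv background, lacked the floxed part of Itgb8, the β8 integrin gene, in the lens through the lens-specific MLR10-cre transgene. All mice were 2 months old, and each library pooled several capsules. Strain background and the deletion cannot be told apart in any comparison of genotypes. In bulk RNA of this kind, fewer cells of a type and less RNA per cell cannot be told apart either.

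Values are FPKM as the authors deposited them, a level scaled to transcript length and to the fragments sequenced. A relative depth, estimated from the steps between low FPKM values, ran from 0.877 to 1.09 across the libraries. The estimate searched only a preset range around WT 0 h replicate 1, so a larger difference could not have appeared. Markers of lens epithelium and of lens fibers led by crystallins summed to at least 11600 and 6900 FPKM in every library. From 0 h to 24 h PCS, 11 of 12 fiber markers fell in WT and 12 of 12 in β8ITG-cKO, as did 2 and 6 of 8 epithelium markers. Itgb8 itself had 7.26 to 10.8 FPKM in WT 0 h, 8.38 to 9.58 in WT 24 h, 4.58 to 7.31 in β8ITG-cKO 0 h and 9.28 to 11.8 in β8ITG-cKO 24 h, so its level over all exons did not separate the genotypes. Zeros in the files may be failed estimates (WT 0 h replicate 2 shows 0 for the crystallin gene Cryaa) and are reported as listed.

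At 0 h PCS the summed level of the set was almost wholly Sparc, and by 24 h PCS it was a mixture. Sparc, a collagen-binding protein of basement membranes, made up 97.5% to 97.9% of the summed FPKM of the 9 genes in WT and 95.6% to 97.9% in β8ITG-cKO at 0 h. At 24 h PCS its share was 34.9% to 50.6% in WT and 42.5% to 45.5% in β8ITG-cKO. The other 8 genes together had 13.2 to 16.2 FPKM in WT at 0 h and 393 to 683 FPKM at 24 h. In β8ITG-cKO LCs they had 21.5 to 35.5 FPKM at 0 h and 464 to 515 FPKM at 24 h.

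The order of the levels changed as well. In WT 0 h, Sparc was followed by Thbs1, Tgfbi and Fn1, whose ranges overlapped from each gene to the next, then, clear of Fn1, by Ecm1, Postn, Thbs2, Spp1 and Tnc, which overlapped in the same way. In β8ITG-cKO 0 h, Ecm1 stood next to Sparc, with Tgfbi and Fn1 after it. In WT 24 h, Sparc lay clear above Tgfbi, Tnc, Fn1 and Ecm1, whose ranges overlapped, then came Thbs1 and Spp1, and then Postn and Thbs2 at 1.59 and 0.184 FPKM. In β8ITG-cKO 24 h, Tgfbi and Ecm1 stood above Tnc and Fn1 with no overlap between Ecm1 and Tnc.

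**Figure D1:**
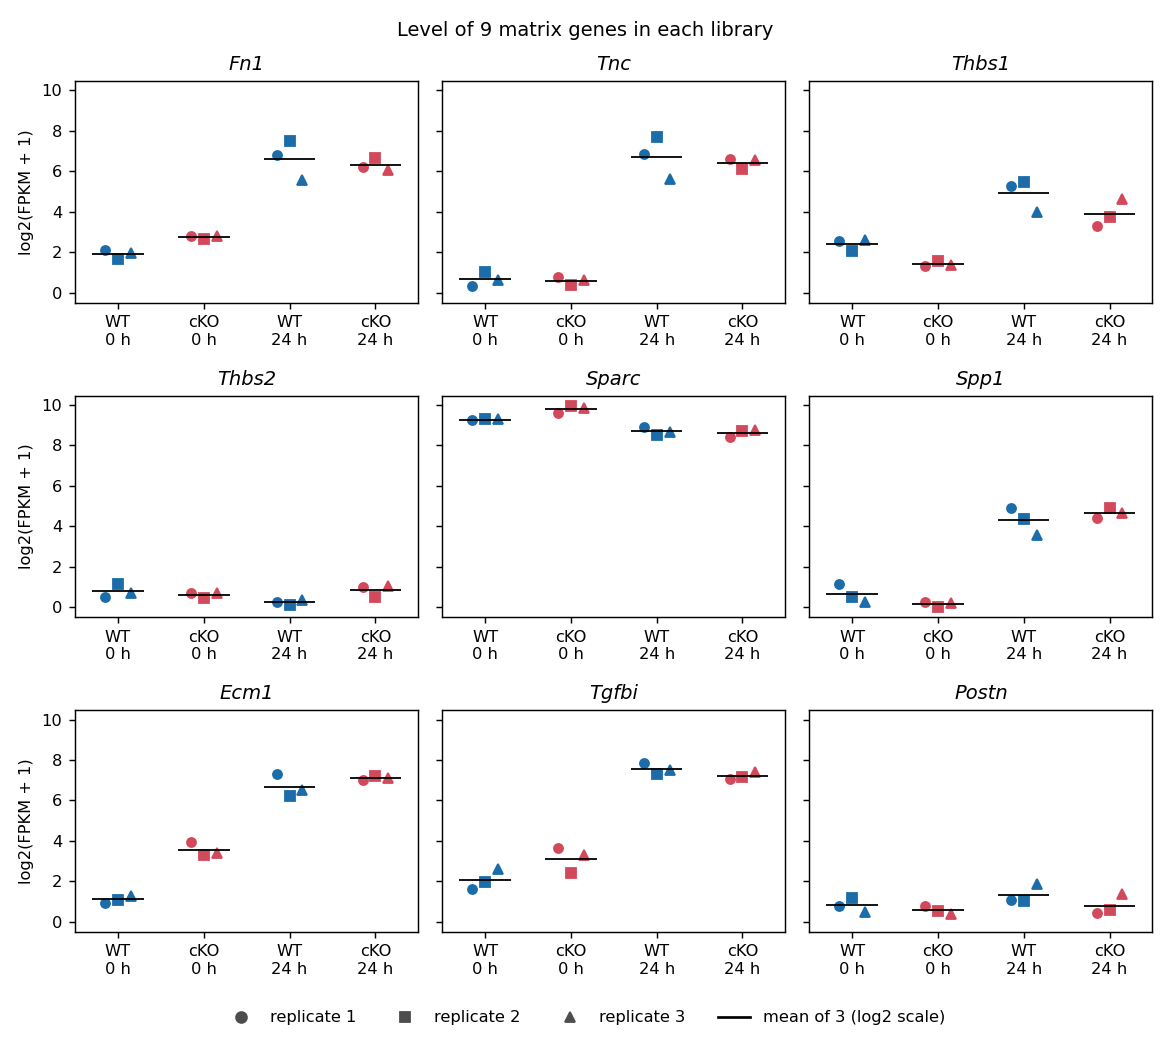
Level of each of the 9 genes on the log2(FPKM + 1) scale in every library, by condition (blue WT, red β8ITG-cKO, here cKO), with the replicate number as the marker shape and the mean of the 3 libraries as a line. Fn1, Tnc, Thbs1, Spp1, Ecm1 and Tgfbi lie higher at 24 h PCS than at 0 h in every library of both genotypes, Sparc lies lower, and Thbs2 and Postn stay below 2.7 FPKM throughout.

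The sequences before the transcription starts are shown for 5 genes of the set, 4 that were higher at 24 h PCS in both genotypes and Sparc, which was lower. They are RefSeq windows of 250 bases on GRCm38.p6, written from 5′ to 3′ on the strand of the gene, with any match to 3 motifs in capitals. The motifs are the AP-1 site TGANTCA, the SMAD-binding CAGACA and the TATA-like TATAAA, each searched on both strands. For Tnc the window of the downstream of its listed starts is given, and the window of its upstream start held TATAAA and no CAGACA. For Spp1 the window of the upstream of its listed starts is given, and that of its downstream start held none of the 3 motifs. The Ecm1 window lies wholly, and the Tnc window partly, inside the span given below for its gene.
Ecm1, chr3:95739570-95739819, minus strand: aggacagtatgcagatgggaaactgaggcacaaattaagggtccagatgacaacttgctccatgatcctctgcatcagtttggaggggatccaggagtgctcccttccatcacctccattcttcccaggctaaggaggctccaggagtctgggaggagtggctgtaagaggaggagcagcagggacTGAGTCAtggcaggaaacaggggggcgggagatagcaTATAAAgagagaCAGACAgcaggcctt
Tnc, chr4:64046937-64047186, minus strand: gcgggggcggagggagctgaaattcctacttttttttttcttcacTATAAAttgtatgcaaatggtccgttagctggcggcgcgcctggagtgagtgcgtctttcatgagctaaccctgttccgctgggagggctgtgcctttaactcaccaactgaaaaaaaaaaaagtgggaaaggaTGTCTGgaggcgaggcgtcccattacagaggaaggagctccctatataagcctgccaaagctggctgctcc
Spp1, chr5:104434861-104435110, plus strand: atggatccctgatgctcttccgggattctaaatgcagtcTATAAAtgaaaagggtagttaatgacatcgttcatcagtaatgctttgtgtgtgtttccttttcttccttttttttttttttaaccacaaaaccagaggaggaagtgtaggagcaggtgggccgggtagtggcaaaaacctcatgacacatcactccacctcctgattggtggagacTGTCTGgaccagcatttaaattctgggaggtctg
Tgfbi, chr13:56609336-56609585, plus strand: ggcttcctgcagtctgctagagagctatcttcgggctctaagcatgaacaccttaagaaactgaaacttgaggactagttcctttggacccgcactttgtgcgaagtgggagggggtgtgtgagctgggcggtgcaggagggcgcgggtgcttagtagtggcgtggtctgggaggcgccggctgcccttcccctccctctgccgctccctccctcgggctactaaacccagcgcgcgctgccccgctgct
Sparc, chr11:55420081-55420330, minus strand: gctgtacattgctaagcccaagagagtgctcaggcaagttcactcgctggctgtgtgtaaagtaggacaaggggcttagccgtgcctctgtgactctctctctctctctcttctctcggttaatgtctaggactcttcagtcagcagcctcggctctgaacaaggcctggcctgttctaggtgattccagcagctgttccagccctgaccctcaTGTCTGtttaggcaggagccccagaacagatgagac

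Ecm1 was the single member of the 7 with a listed window that held the AP-1 letters, 58 bases before the start, against 6.75% of 32851 promoter windows of that length. The same window held TATAAA 22 bases and CAGACA 10 bases before the start. CAGACA was found in at least 1 listed window of 5 of the 7 genes (Ecm1, Sparc, Spp1, Thbs2 and Tnc) and in 17.1% of all windows. TATAAA was found for 5 of the 7 (Ecm1, Postn, Spp1, Thbs2 and Tnc), for Postn only before its downstream listed start, and in 12.4% of all windows. Tnc, Spp1 and Postn had more than 1 listed window, so these counts per gene are not like the shares per window. A further motif, the TEAD-binding GGAATG, was in 0 of the 7 and in 12.6% of all windows. Sparc, whose level fell, shared CAGACA with 4 genes of the set, and Tgfbi held none of the 4 motifs. No match overlapped another. These matches describe letters in a window and say nothing of binding.

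The first question was how the 9 genes changed in WT LCs between 0 h and 24 h PCS. Each comparison was fitted with limma-trend on log2(FPKM + 1) over all genes averaging 0.5 FPKM or more, with Benjamini-Hochberg adjustment. A call needed an adjusted p of at most 0.05, group means more than 2-fold and more than 2 FPKM apart, and the higher mean at 2 FPKM or above. Of the 8 members tested in WT, 6 were called, all higher at 24 h, against 14.3% of the 15146 genes tested (10.3% higher, 3.92% lower). The groups did not overlap for 8 of the 9 members, 6 higher and 2 lower, against 46.9% of the genes tested (31.3% higher, 15.6% lower). In β8ITG-cKO LCs, 7 of 9 members tested were called, the same 6 higher and Sparc lower, against 15.1% of 15237 genes (11.3% higher, 3.77% lower). There the groups did not overlap for 7 of the 9 members, 6 higher and 1 lower, against 56.9% of the genes tested (42.9% higher, 14% lower). The median log2 change was 4.19 over the members tested in WT and 3.56 in β8ITG-cKO, beside 0.16 and 0.23 over all genes tested. Because the members were chosen with earlier results of these data known, these contrasts with all genes are a description and not a test.

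Rescaling the libraries to the same median moved the median of all genes to -0.04 in WT and 0 in β8ITG-cKO. The share of calls that were higher then went from 72.5% to 51% in WT and from 74.9% to 57% in β8ITG-cKO, while the 6 rises and the lower level of Sparc kept their directions.

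**Figure D2:**
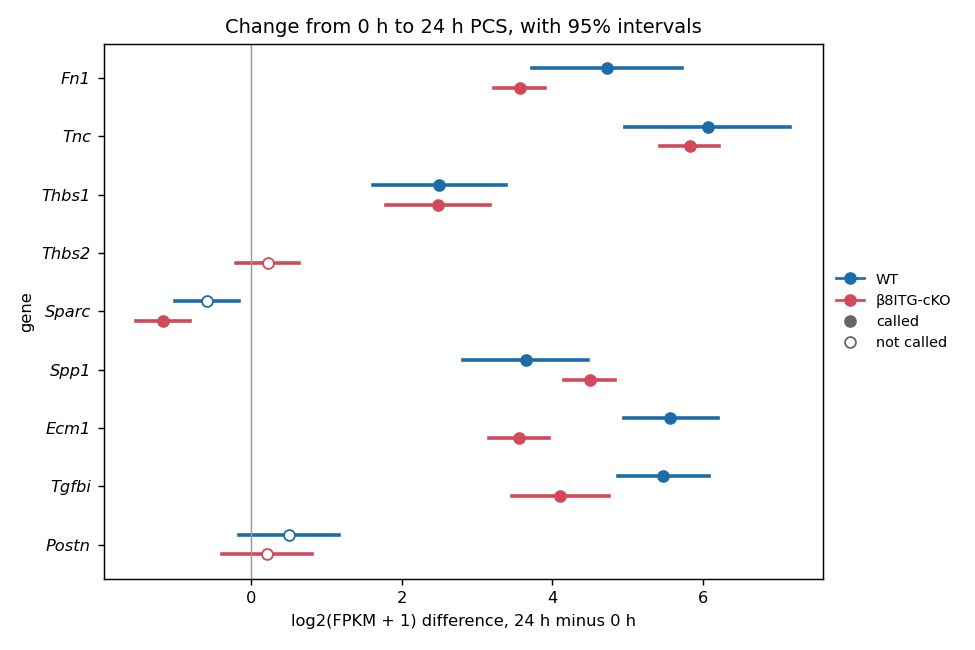
Change from 0 h to 24 h PCS for each gene in WT (blue) and β8ITG-cKO (red) on the log2(FPKM + 1) scale, with 95% intervals from limma-trend and filled points for called genes. Tnc shows the highest point in both genotypes (6.07 and 5.83), Ecm1 lies at 5.57 in WT and 3.56 in β8ITG-cKO, and Sparc is below 0 in both. Thbs2 in WT was below the filter on low values and has no point.

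Fn1 encodes fibronectin, a fibril-forming protein of the matrix. Fn1 lies on chr1:71585473-71653280 (RefSeq, GRCm38.p6). WT LCs had 3.29, 2.13 and 2.84 FPKM at 0 h and 109.6, 180.5 and 46.7 FPKM at 24 h, and β8ITG-cKO LCs had 5.86, 5.23 and 5.96 FPKM at 0 h and 73.5, 98.1 and 66.4 FPKM at 24 h. In each genotype all levels at 24 h exceeded all those at 0 h. The rise was 4.73 on the log2 scale in WT (standard error 0.43, adjusted p = 0.000511, 40.8-fold by the means) and 3.57 in β8ITG-cKO (standard error 0.15, adjusted p = 5.2e-06, 14.0-fold).

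Tnc, the hexameric glycoprotein tenascin C of healing wounds, lies on chr4:63959785-64047015. It had 0.263, 0.991 and 0.559 FPKM in WT 0 h and 113.8, 208.5 and 48.0 FPKM in WT 24 h. The β8ITG-cKO libraries had 0.709, 0.286 and 0.546 FPKM at 0 h and 96.8, 67.8 and 92.0 FPKM at 24 h. Tnc therefore went from among the lowest levels of the set at 0 h to among its most abundant transcripts. Its rise was 6.07 in WT (standard error 0.47, adjusted p = 0.000258) and 5.83 in β8ITG-cKO (standard error 0.17, adjusted p = 1.85e-06). In the files the locus of Tnc is merged with the long noncoding gene 8030451A03Rik on the opposite strand, which had 0 to 0.960 FPKM across the 12 libraries. Whether reads were counted by strand is not given in the sources used here.

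The WT 24 h libraries differed widely among themselves for these genes. The highest was 3.87 times the lowest for Fn1, 4.34 times for Tnc and 2.96 times for Thbs1, beside a median ratio of 1.38 over 4373 genes with at least 10 FPKM. Only 2.63%, 2.17% and 3.84% of those genes spread as widely. In β8ITG-cKO 24 h the ratios were 1.48 for Fn1 and 1.43 for Tnc, but 2.67 for Thbs1, beside a median of 1.21. WT 24 h replicate 3 was the lowest of its group for Fn1, Tnc, Thbs1 and Spp1. Its summed FPKM of 7 corneal epithelium markers was 86.5, against 43.2 and 19.8 in the other libraries of the group, and the part of such cells in these levels was not tested.

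Thbs1 and Thbs2 encode trimeric thrombospondins, which bind CD36 and CD47, and thrombospondin 1 is known as an activator of latent TGF-β. Thbs1, on chr2:118111876-118127133, had 4.94, 3.13 and 5.10 FPKM in WT 0 h and 37.8, 43.5 and 14.7 FPKM in WT 24 h. The β8ITG-cKO libraries had 1.495, 1.92 and 1.53 FPKM at 0 h and 8.81, 12.4 and 23.6 FPKM at 24 h. All 24 h libraries were above the 0 h libraries of their genotype, and all β8ITG-cKO 0 h libraries were below the WT 0 h libraries. The rise was 2.50 in WT (standard error 0.38, adjusted p = 0.00337) and 2.48 in β8ITG-cKO (standard error 0.30, adjusted p = 0.00048).

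Thbs2, on chr17:14665500-14694262, stayed low. It had 0.398, 1.20 and 0.629 FPKM in WT 0 h, and 0.182, 0.0813 and 0.289 FPKM in WT 24 h. Levels in β8ITG-cKO were 0.605, 0.367 and 0.628 FPKM at 0 h and 0.962, 0.411 and 1.04 FPKM at 24 h. Its WT 24 h libraries lay below those of WT 0 h and of β8ITG-cKO 24 h with no overlap, at levels too low for the filter of either comparison. In β8ITG-cKO its change over time was 0.22 (standard error 0.18, adjusted p = 0.355). The summed FPKM of 14 photoreceptor markers had the same order of group medians, at 91.7 to 174 in WT 24 h and 1040 to 1230 in β8ITG-cKO 24 h, with WT 0 h replicate 2 the highest of all for both (1390 FPKM for the markers). None of those markers was at 0 throughout a group, and their part in the level of Thbs2 was not tested.

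Sparc, on chr11:55394159-55420080, went the other way. It had 612.3, 623.6 and 622.1 FPKM in WT 0 h and 477.0, 367.0 and 401.6 FPKM in WT 24 h. Levels in β8ITG-cKO were 767.8, 997.5 and 912.8 FPKM at 0 h and 343.6, 412.9 and 430.4 FPKM at 24 h. The 24 h libraries lay below the 0 h libraries in each genotype, and the 24 h levels of the genotypes overlapped. Sparc fell by 1.17 on the log2 scale in β8ITG-cKO (standard error 0.15, adjusted p = 7e-04, 2.26 times lower by the means). In WT the change was -0.58 (standard error 0.18, adjusted p = 0.0458), which at 1.49 times lower did not meet the fold criterion. The summed level of the 8 lens epithelium markers, led by crystallins, had medians of 34500 FPKM in WT 0 h and 18400 in WT 24 h. In β8ITG-cKO they were 42700 and 12500 FPKM. Over the 8 genes the median log2 change was -0.48 in WT, with 2 called lower, and -1.41 in β8ITG-cKO, with 6. The part of lens epithelium in the level of Sparc was not tested. The WT 0 h libraries differed by a ratio of 1.02 for Sparc, and 99.4% of 3686 genes with at least 10 FPKM spread at least as much.

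Spp1 encodes osteopontin, an acidic phosphoprotein that binds αV integrins and CD44. It lies on chr5:104435111-104441053 and had 1.22, 0.422 and 0.185 FPKM in WT 0 h and 28.8, 19.8 and 11.03 FPKM in WT 24 h. In β8ITG-cKO 0 h it had 0.186 and 0.140 FPKM in replicates 1 and 3 and was listed at 0 in replicate 2, and at 24 h it had 20.3, 28.4 and 24.0 FPKM. All 24 h libraries lay above all 0 h libraries of the same genotype. The rise was 3.65 in WT (standard error 0.36, adjusted p = 0.000656) and 4.50 in β8ITG-cKO (standard error 0.15, adjusted p = 2.22e-06).

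Ecm1 encodes extracellular matrix protein 1, a secreted glycoprotein of basement membranes. It lies on chr3:95734147-95739876. The window printed above, with its AP-1, SMAD and TATA-like letters, lies inside this span, before a listed start within the gene. WT 0 h libraries had 0.918, 1.14 and 1.44 FPKM and WT 24 h libraries 156.7, 73.7 and 90.7 FPKM. In β8ITG-cKO it had 14.6, 8.90 and 9.69 FPKM at 0 h and 129.0, 147.7 and 139.0 FPKM at 24 h. The lowest β8ITG-cKO 0 h library was above the highest WT 0 h library, while at 24 h the genotypes overlapped. Ecm1 rose by 5.57 in WT (standard error 0.27, adjusted p = 6.24e-05, 91.7-fold) and by 3.56 in β8ITG-cKO (standard error 0.17, adjusted p = 9.8e-06, 12.5-fold). The microRNA gene Mir7014 inside it was listed at 0 in all 12 libraries.

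Tgfbi encodes TGF-β-induced protein, also called keratoepithelin, an adhesion protein that binds integrins and collagen. It lies on chr13:56609586-56639359 and had 2.08, 2.89 and 5.07 FPKM in WT 0 h and 227.5, 156.2 and 178.7 FPKM in WT 24 h. In β8ITG-cKO it had 11.3, 4.36 and 8.81 FPKM at 0 h and 134.4, 143.1 and 167.1 FPKM at 24 h. It was second to Sparc in mean level in both 24 h groups. The rise was 5.48 in WT (standard error 0.26, adjusted p = 6.24e-05, 56.0-fold) and 4.10 in β8ITG-cKO (standard error 0.28, adjusted p = 3.7e-05, 18.2-fold).

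Postn encodes periostin, a relative of TGF-β-induced protein that is typical of collagen-rich tissue and its fibroblasts. It lies on chr3:54359267-54391041. It had 0.704, 1.25 and 0.419 FPKM in WT 0 h and 1.11, 1.01 and 2.65 FPKM in WT 24 h. In β8ITG-cKO it had 0.695, 0.466 and 0.319 FPKM at 0 h and 0.329, 0.480 and 1.57 FPKM at 24 h. The groups overlapped in every comparison. The change over time was 0.50 in WT (standard error 0.29, adjusted p = 0.22) and 0.21 in β8ITG-cKO (standard error 0.26, adjusted p = 0.538). A noncoding gene in the locus, Gm31095, was listed at 0 in all 12 libraries.

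Markers of blood and stromal cells are given for the same interval, since such cells can make some of these proteins. Of the neutrophil markers tested, 5 of 6 rose in WT and 4 of 5 in β8ITG-cKO. The summed FPKM of 9 neutrophil markers was 0.833 to 0.875 in WT 0 h and 53.9 to 74.1 in WT 24 h, and it was 0.718 to 1.60 in β8ITG-cKO 0 h and 16.9 to 42.9 at 24 h. Elane, Ly6g and Mpo were at 0 in all 12 libraries. The 11 macrophage markers summed to 8.51 to 17.8 FPKM in WT 0 h, 13.4 to 24.3 in WT 24 h, 8.21 to 11.1 in β8ITG-cKO 0 h and 14.6 to 31.5 in β8ITG-cKO 24 h, with 1 of 8 called higher in WT and 2 of 9 in β8ITG-cKO. The 7 platelet markers summed to 2.66 to 6.95, 10.4 to 16.3, 1.73 to 3.94 and 9.91 to 16.6 FPKM in the same order, with 0 of 4 called in WT and 1 of 2 called higher in β8ITG-cKO. The 8 markers of corneal stroma and fibroblasts summed to 40.4 to 46.0, 25.1 to 37.6, 57.6 to 70.5 and 27.2 to 43.1 FPKM, with 1 called higher in each genotype and 1 and 2 called lower in WT and β8ITG-cKO. The 5 red blood cell markers summed to 68.0 to 153, 36.0 to 220, 6.52 to 15.8 and 87.4 to 195 FPKM, with 0 of 5 called in WT and 4 of 5 called higher in β8ITG-cKO. The part of these cells in the rises was not tested.

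The next question was whether the rises differed between the genotypes, tested as a genotype-by-time interaction fitted to the 12 libraries together and called at an adjusted p of at most 0.05. Only Ecm1 of the 9 members was called, against 9.39% of 15262 genes (6.83% with a higher and 2.56% with a lower log2 change in β8ITG-cKO). Its log2 change was 2.01 smaller in β8ITG-cKO (interaction -2.01, standard error 0.35, adjusted p = 0.00769). On the linear scale the mean of Ecm1 went up by 105.9 FPKM in WT and by 127.5 FPKM in β8ITG-cKO, so the smaller log2 change went with a higher starting level and not with a lower level at 24 h. The interaction was -1.38 for Tgfbi (standard error 0.42, adjusted p = 0.0657) and -1.16 for Fn1 (standard error 0.51, adjusted p = 0.191), which did not pass. The mean of Tgfbi went up by 184.1 and 140.0 FPKM and that of Fn1 by 109.5 and 73.65 FPKM in WT and β8ITG-cKO.

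Leaving out single libraries moved both across the threshold. Without WT 24 h replicate 3 the interaction of Fn1 was -1.68 (adjusted p = 0.00945). For Tgfbi it was -1.65 without WT 0 h replicate 3 (adjusted p = 0.0267) and -1.72 without β8ITG-cKO 0 h replicate 2 (adjusted p = 0.0266). For the other members the interaction was -0.24 for Tnc (95% interval -1.47 to 1), -0.02 for Thbs1 (-1.21 to 1.17), 0.76 for Thbs2 (0.13 to 1.38, adjusted p = 0.124), -0.59 for Sparc (-1.07 to -0.10, adjusted p = 0.127), 0.85 for Spp1 (-0.08 to 1.78) and -0.29 for Postn (-1.20 to 0.61). The intervals are not adjusted for the number of genes.

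At 24 h PCS itself, no member was called between β8ITG-cKO and WT (0 of 8 tested in limma-trend, against 3.66% of 15366 genes, 3.37% higher and 0.286% lower), and 0 of the 8 had an unadjusted p under 0.05. The count was 0 in each of the other fits run, with or without each library. Fn1 differed by -0.31 (95% interval -1.35 to 0.73), Tnc by -0.31 (-1.41 to 0.80) and Sparc by -0.07 (-0.49 to 0.35), each with overlapping groups. Tgfbi differed by -0.33 (-0.75 to 0.10), Postn by -0.54 (-1.30 to 0.22), Spp1 by 0.36 (-0.38 to 1.09) and Ecm1 by 0.44 (-0.18 to 1.07). Without WT replicate 1 these were 0.66 for Spp1 and 0.75 for Ecm1 (adjusted p = 0.219 and 0.0585), and without WT replicate 3 Spp1 differed by 0.01. The intervals of Fn1 and Tnc include levels more than 2-fold lower in β8ITG-cKO. The paper lists Fn1, Tnc and Thbs1 as changed between the genotypes at 24 h, from its own analysis of these libraries. That analysis was not rerun, so the lack of a call here holds for limma-trend alone. Thbs2, not tested here, was the 1 member of the 9 whose groups did not overlap, higher in β8ITG-cKO, against 26.5% of the genes tested (17.5% higher, 9% lower).

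Thbs1 had the largest difference of the 8 at 24 h. Its mean was 14.9 ± 7.69 FPKM in β8ITG-cKO and 32.0 ± 15.2 FPKM in WT (SD, n = 3 libraries each), a log2 difference of -1.03 (95% interval -2.10 to 0.05, limma-trend adjusted p = 0.269). WT replicate 3, at 14.7 FPKM, lay within the range of the β8ITG-cKO libraries, and β8ITG-cKO replicate 3, at 23.6 FPKM, lay within the range of WT. Without WT replicate 3 the difference was -1.49 (adjusted p = 0.0622) and without β8ITG-cKO replicate 3 it was -1.39 (adjusted p = 0.207). The estimates for Fn1 and Tnc also moved with single WT libraries, to -0.84 (adjusted p = 0.11) and -0.86 (adjusted p = 0.126) without WT replicate 3. Without WT replicate 2 the same genes differed by 0.13 and 0.19. Photoreceptor markers were higher in β8ITG-cKO at 24 h (14 of 14 called), with the sums given beside Thbs2.

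**Figure D3:**
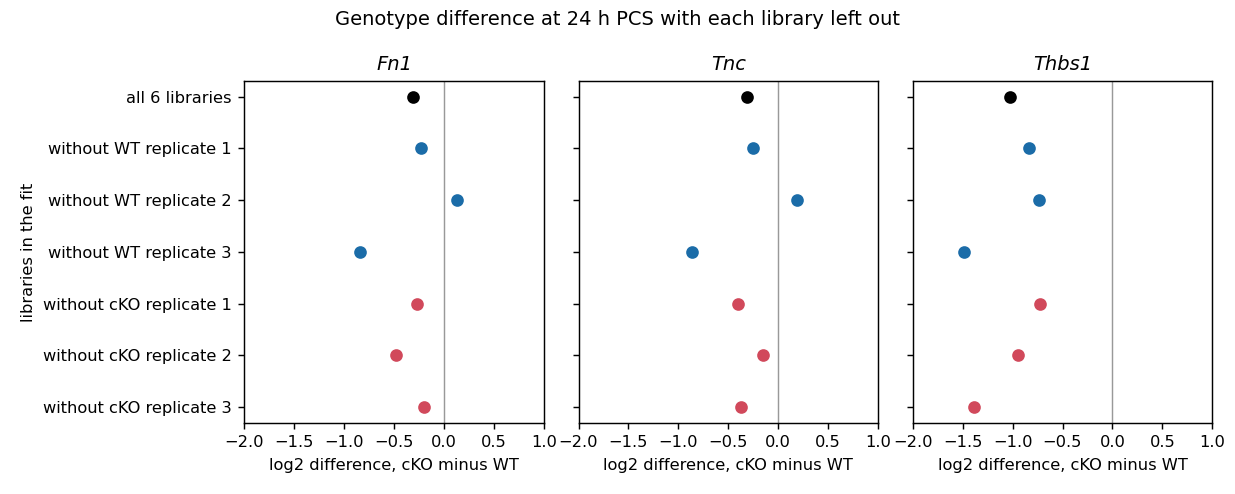
Difference between β8ITG-cKO and WT at 24 h PCS on the log2(FPKM + 1) scale for Fn1, Tnc and Thbs1, with all 6 libraries (black) and with each library left out (blue, a WT library; red, a β8ITG-cKO library). The points for Fn1 run from -0.84 to 0.13 and for Tnc from -0.86 to 0.19, crossing 0 without WT replicate 2, while those for Thbs1 run from -1.49 to -0.73.

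At 0 h PCS, immediately after surgery, 3 of 8 members tested differed between the genotypes, against 2.52% of 14708 genes (1.35% higher, 1.18% lower). The groups did not overlap for 4 of the 9, 3 higher and 1 lower, against 30.8% of the genes tested (18% higher, 12.8% lower). Ecm1 was higher in β8ITG-cKO, at 11.1 ± 3.10 against 1.17 ± 0.262 FPKM (SD, n = 3 libraries each), a log2 difference of 2.46 (standard error 0.19, limma-trend adjusted p = 0.0011, 9.49-fold by the means). It was called without each library in turn, at 2.25 to 2.58. Fn1 was also higher, by 0.84 (standard error 0.15, adjusted p = 0.0206), at 2.07-fold just past the fold criterion, and Thbs1 was lower, by 1.01 (log2 difference -1.01, standard error 0.18, adjusted p = 0.0218, 2.66-fold by the means).

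The calls of Fn1 and Thbs1 at 0 h changed with single libraries and with the fit. With a library left out, the log2 differences were 0.72 to 0.95 for Fn1 and -1.19 to -0.91 for Thbs1. Over all genes, those fits called from 0.847% (without β8ITG-cKO replicate 3) to 2.59% (without WT replicate 2). Fn1 was called in 2 of the 6 fits without a library, those without WT replicate 1 or WT replicate 3 (adjusted p of 0.0322 to 0.0952 over the 6). Thbs1 was called in 1 of the 6, that without WT replicate 2 (adjusted p of 0.00947 to 0.0936). With 1 estimate of spread over the 12 libraries the adjusted p was 0.196 for Fn1 and 0.148 for Thbs1. Their libraries did not overlap between the genotypes, at 5.23 FPKM or more against 3.29 FPKM or less for Fn1.

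Sparc was apart between the genotypes at 0 h as well, at 893 ± 116 FPKM in β8ITG-cKO and 619 ± 6.16 FPKM in WT (SD, n = 3 libraries each), a log2 difference of 0.52 (95% interval 0.18 to 0.85) that did not pass limma-trend (adjusted p = 0.0746). Tgfbi differed by 1.05 (0.26 to 1.84, adjusted p = 0.111) with overlapping libraries. Tnc differed by -0.07 (-0.57 to 0.43), Thbs2 by -0.16 (-0.64 to 0.31) and Postn by -0.24 (-0.73 to 0.24). Spp1 was below the filter on low values, with overlapping libraries. Red blood cell markers were also lower in β8ITG-cKO at 0 h (4 of 5 called, with the sums given above), and their part in these differences was not tested.

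**Figure D4:**
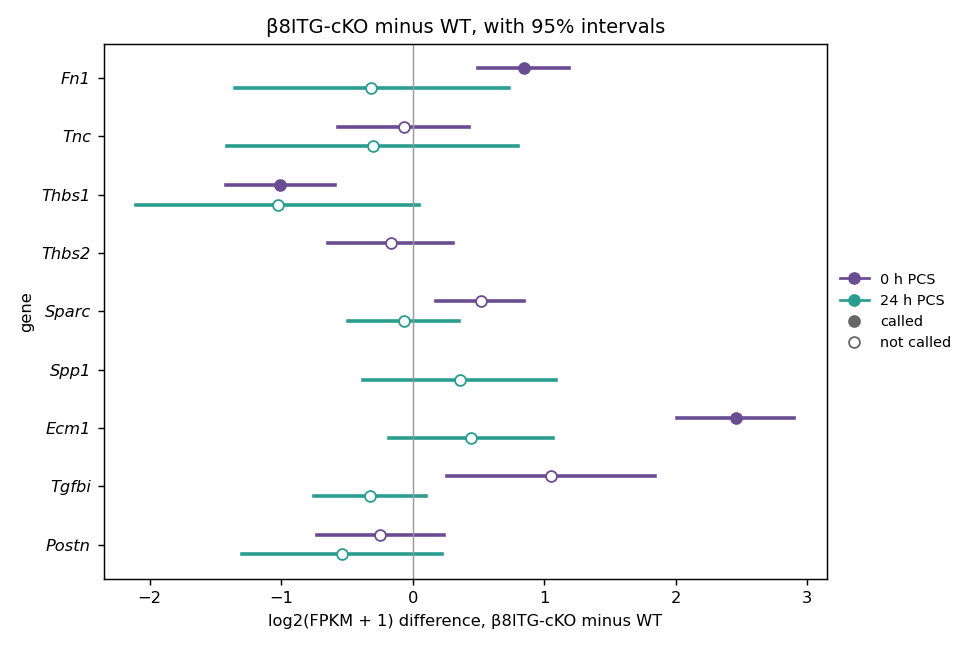
Difference between β8ITG-cKO and WT at 0 h (purple) and 24 h PCS (green) on the log2(FPKM + 1) scale, with 95% intervals from limma-trend and filled points for called genes. Ecm1 at 0 h (2.46) stands farthest from 0, Fn1 and Thbs1 are called at 0 h on opposite sides, and no gene is called at 24 h. Thbs2 at 24 h and Spp1 at 0 h were below the filter and have no point.

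The other matricellular genes, a list of 31 that includes the CCN proteins, fibulins and further thrombospondins, tenascins and SPARC relatives, split in both directions. In WT, 6 rose and 6 fell of 23 tested, with a median change of -0.66, and in β8ITG-cKO 5 rose and 5 fell of 24, with a median of 0.11. Over all genes tested, 10.3% were called higher and 3.92% lower in WT, and 11.3% and 3.77% in β8ITG-cKO. Fbln2, an elastic fiber protein, rose by 4.08 in WT (adjusted p = 0.000398) and 4.43 in β8ITG-cKO (adjusted p = 1.79e-05), from 1.09 and 0.525 FPKM to 37.3 and 33.1 FPKM. Cyr61, a CCN protein induced by growth factors and stretch, rose by 1.79 and 3.75, reaching 132.5 ± 53.3 and 112.5 ± 12.6 FPKM (SD, n = 3). Igfbp7, a secreted binding protein abundant in these libraries, fell by 1.36 and 1.88, from 1866 and 2390 FPKM to 732.8 and 644.7 FPKM. Vtn, the adhesion protein vitronectin, fell by 1.81 in WT (adjusted p = 0.0146) and rose by 1.25 in β8ITG-cKO (adjusted p = 0.00207). Tnxb, tenascin X, fell by 1.36 in WT (adjusted p = 0.00984) and by 2.48 in β8ITG-cKO (adjusted p = 0.000111).

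Between the genotypes at 24 h, 3.37% of all genes tested were called higher in β8ITG-cKO and 0.286% lower. Of the other matricellular genes, 4 of 24 were higher and none was lower in limma-trend. Vtn was the called gene of at least 10 FPKM among them, by 2.00 (adjusted p = 0.0111), with 23.5 ± 4.05 against 5.48 ± 2.77 FPKM (SD, n = 3). Its means at 0 h were 21.8 FPKM in WT and 9.42 in β8ITG-cKO, and over the 4 groups they had the order of the photoreceptor marker medians (416 and 163 FPKM in WT at 0 h and 24 h, 327 and 1210 in β8ITG-cKO), whose part in the level of Vtn was not tested. At 0 h, Cthrc1, a secreted collagen triple helix repeat protein, was higher by 2.58 (adjusted p = 6.76e-05), Tnxb was higher by 0.98 (adjusted p = 0.00303) and Cyr61 was lower (-2.12, adjusted p = 0.00635), the called genes among 22 tested. Over all genes tested at 0 h, 1.35% were called higher and 1.18% lower. The interaction was called for 3 of 24, all toward a higher change in β8ITG-cKO, against 9.39% of all genes (6.83% higher, 2.56% lower). Among the 3 were Vtn (3.06, adjusted p = 0.00737) and Cyr61 (1.96, adjusted p = 0.0171). Cyr61 and Ecm1 thus both differed at 0 h, in opposite directions, and were not called at 24 h.

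Of 19 genes for receptors of these proteins, 13 were tested in WT. There 5 rose, against 10.3% of all genes, and none fell, against 3.92%. They were Itga5, the α chain of the main fibronectin receptor (3.05, adjusted p = 0.000993), its partner Itgb1 (1.51, adjusted p = 0.00424), Cd44 (1.31, adjusted p = 0.00117), the syndecan Sdc4 (1.18, adjusted p = 0.00238) and Itgav. In β8ITG-cKO, 3 of 14 rose, Itga5 (2.09, adjusted p = 1.65e-05), Cd44 (1.61, adjusted p = 0.000139) and Sdc4 (1.45, adjusted p = 4.7e-05), and Itgb5 fell by 1.12 (adjusted p = 0.000259). Over all genes in β8ITG-cKO, 11.3% were called higher and 3.77% lower. There Itgb1 (0.90, adjusted p = 0.000401) and Itgav (0.72, adjusted p = 0.00153) missed the fold criterion, and their interactions were not called (adjusted p = 0.208 and 0.239). No receptor gene was called between the genotypes at 24 h (0 of 14, against 3.66% of all genes) or 0 h (0 of 13, against 2.52%). The interaction was called for the syndecan Sdc1 alone of 13 (-0.73, adjusted p = 0.0338), against 9.39% of all genes. The difference of Itga5 at 24 h was -1.26 (adjusted p = 0.0692), with 17.0 ± 1.95 FPKM in β8ITG-cKO and 45.7 ± 24.9 FPKM in WT (SD, n = 3). The paper lists Itga5 too as changed between the genotypes at 24 h, from its own analysis.

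**Figure D5:**
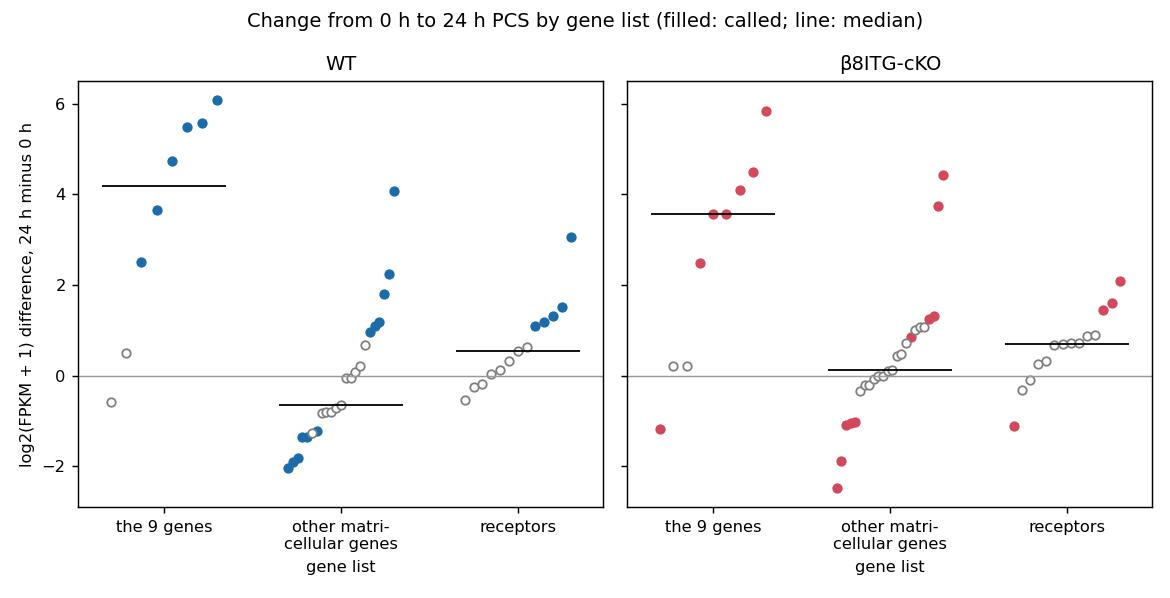
Change from 0 h to 24 h PCS on the log2(FPKM + 1) scale for every gene tested of the 9, of the other matricellular genes and of the receptors, in WT (left) and β8ITG-cKO (right), with called genes filled and the median of each list as a line. The 9 genes have medians of 4.19 and 3.56, the other matricellular genes -0.66 and 0.11, and the receptors 0.55 and 0.70. The lists were chosen with earlier results of these data known, so the medians are a description.

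Over the 12 libraries, the genes most like 8 of the members among 4133 with a mean of at least 10 FPKM are given as a description, since the points share libraries and most of the spread is that between 0 h and 24 h. Fn1 was closest to Myh9 (Pearson r = 0.992 on the log2 scale) and Actn1 (0.991), genes for a nonmuscle myosin and an actin crosslinker. Tnc was closest to Plaur (0.995), the urokinase receptor, and Fxyd5 (0.992). Ecm1 was closest to Timp1 (0.985), a metalloproteinase inhibitor, and Bmp1 (0.980), a procollagen protease. Sparc was closest to Crim1 (0.986) and Foxe3 (0.986), a transcription factor of lens epithelium. Tgfbi was closest to Snrnp70 (0.990) and Axl (0.989), and Thbs1 to Larp4b (0.973) and Hnrnpa3 (0.972). The low genes had weaker matches, Thbs2 with Cdon (0.898) and Pdc (0.875), a photoreceptor gene, and Postn with Ucp2 (0.849) and Ildr2 (0.837).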

How the data were processed

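RNA-Seq libraries of LCs were read from 4 tables of 45859 genes, each for a pair of conditions. The authors deposited FPKM per library and gene from Cuffdiff 2.2.1. The submitters' processing notes also name FastQC, cutadapt 1.12, TopHat2 2.1.0 and the build GRCm38, and 99.5% of the 90.0% of symbols found in RefSeq GRCm38.p6 overlapped its position. Tables that shared a library held the same FPKM for it. A total of 16 group-value columns and the authors' fold changes, p-values and q values were not used. Without counts the absolute depth is unknown, so no counting interval is given. The p-values set differences between groups against the spread between libraries, estimated jointly for the groups of a fit. Each library pooled capsules, so the spread between single mice is not measured.

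Comparisons used limma-trend (limma 3.58.1, R 4.3.3) on log2(FPKM + 1), a scale that understates the change of low genes, for genes averaging 0.5 FPKM or more, with Benjamini-Hochberg adjustment over all genes tested. The fit was also run on simulated data, with changes placed only in genes more abundant in WT 0 h than every member but Sparc. That run does not measure how well changes of the other members are found. Members and gene lists were chosen with earlier results of these data known. Of the lists, up to 4 called genes per comparison with the largest change and a group mean of at least 10 FPKM are named. Itgav, Itgb1, Vtn and Tnxb where they add the other genotype, Itga5 at 24 h and the genes sharing a locus were named outside that rule, after their values were seen. The 2 most correlated genes are named per member, and those of Spp1 are not reported here. Alternatives covered the pseudocount, the low-value filter, rescaling, the replicate block, 1 fit over 12 libraries, the thresholds and each library left out. Promoter windows are from RefSeq, and 7 of 9 members matched. Figures were drawn with matplotlib 3.10.9 and tables with pandas 2.3.3.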

Additional observations from a re-analysis of the deposited data

Results flagged for a closer look

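The change of Ecm1 from 0 h to 24 h PCS differed between the genotypes by -2.01 on the log2 scale (β8ITG-cKO minus WT, adjusted p = 0.00769 from the interaction in limma-trend over 12 libraries). It stands here because the same contrast over time gave different sizes in WT and β8ITG-cKO by a test of the difference itself. All 3 β8ITG-cKO 0 h libraries were above all 3 WT 0 h libraries, and the 24 h libraries overlapped. The interaction was called in each fit without a library, at -2.24 to -1.70.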

How the results depend on the processing

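The counts of members called over time and at 24 h PCS kept to 6 or 7 in WT, 6 or 7 in β8ITG-cKO and 0 between the genotypes, with each library left out or under each other alternative. Sparc accounts for both differences, since it was called in WT by the adjusted p alone (-0.58) and not in β8ITG-cKO at a fold over 4 (-1.17). The count at 0 h went from 3 to 1 with no filter on low values, with 1 fit over all 12 libraries, at a fold over 4 and with the replicate number as a block, and was 1 to 2 with a library left out. The replicate numbers were not treated as a pairing, because the deviations of same-numbered libraries correlated at -0.22 to 0.08 over genes, and with the block Fn1 (0.84, adjusted p = 0.0526) and Thbs1 (-1.01, adjusted p = 0.07) lost their calls at 0 h and no other member's call changed. The members with a called interaction numbered 1 to 2 with a library left out. With a pseudocount of 0.1 FPKM the interaction of Thbs1 was 0.26 and not -0.02, that of Thbs2 1.98 and not 0.76, and that of Spp1 1.99 and not 0.85, none of them called, and the rise of Spp1 in β8ITG-cKO was 6.99 and not 4.50. With a library left out, signs changed for the 24 h difference of Fn1 (-0.84 to 0.13), Tnc (-0.86 to 0.19) and Sparc (-0.15 to 0.04), for the 0 h difference of Thbs2 (-0.31 to 0.02) and Tnc (-0.23 to 0.04), and for the interaction of Thbs1 (-0.49 to 0.28) and Tnc (-0.79 to 0.26), none of them called. Of the values for single members, 289 of 300 under the other alternatives and 279 of 304 with a library left out kept their direction and side of the threshold. The cause of these changes was not tested. Over all genes, no filter on low values gave 6.08%, 7.61%, 1.43%, 0.46% and 3.93% called in WT over time, β8ITG-cKO over time, the genotypes at 24 h and at 0 h, and the interaction. A fold over 4 gave 4.36%, 5.9%, 2.23% and 0.687% for the first 4, and the adjusted p alone 29.7%, 46.1%, 6.29% and 6.94%. The block gave 1.52% at 0 h.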
